A study of Mus musculus with 23 samples.

Results

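The comparison set the 12 libraries whose titles carry replicate number 1, 2 or 3 against the 11 that carry 4, 5 or 6, out of the 23 libraries of the series. The tissue was brain, and all mice were labelled as C57BL/6J males aged 17 postnatal days (P17). The labelled age and sex thus did not differ over the comparison, and genotype and treatment were nearly balanced. Polyadenylated RNA was sequenced in 4 groups. They were mice heterozygous for Grin2b (HT; the title of the series names the C456Y mutation) given DCS, HT mice given vehicle, wild-type (WT) mice given DCS and WT mice given vehicle. Each group gave 3 libraries numbered 1 to 3 and 3 numbered 4 to 6, except that WT DCS had 2 with the higher numbers. The last WT DCS library is replicate 5 in its title and carries a 6 in its description, and both numbers put it in the same set. The labels write DCS with no full name; it commonly stands for D-cycloserine, a drug that partly activates NMDA receptors through their glycine site. Grin2b encodes the GluN2B subunit of that receptor, a glutamate-gated channel. The labels name no brain region, do not say what the numbers stand for (a litter, a day or a sequencing run), and do not state whether every library is a separate mouse. The spread behind the p-values below is that of these samples and may be technical.

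In the mouse forebrain the weeks after birth are the time when oligodendrocyte precursors become myelinating cells, which wrap axons in a membrane rich in galactolipids and a few abundant proteins. Neurons over the same weeks switch off genes of migration and axon growth and switch on the ion channels of fast and regular firing. A library of brain tissue holds all of these cells together. Fewer cells of a type and less RNA per cell cannot be told apart in it.

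The values were normalised read counts, with library totals of 32.8 M to 33.5 M for numbers 1 to 3 and 32.3 M to 33.2 M for numbers 4 to 6. Depth before the authors' scaling, estimated from the steps between low values, was 28.7 M to 36.7 M reads for numbers 1 to 3 and 25.6 M to 37.4 M for numbers 4 to 6, with a median of 33.5 M in both sets. Mitochondrially encoded RNA took a median of 4.91% of the reads in numbers 1 to 3 and 4.65% in numbers 4 to 6. Haemoglobin RNA took 0.0442% in numbers 1 to 3 and 0.0328% in numbers 4 to 6, and the 20 most abundant genes of each library took 9.07% in numbers 1 to 3 and 8.47% in numbers 4 to 6. The medians of these shares moved with the comparison, while the sets overlapped in each share. Mitochondrially encoded RNA took 4.42% to 5.31% in numbers 1 to 3 and 4.39% to 4.93% in numbers 4 to 6. The ranges of haemoglobin RNA were 0.0359% to 0.0673% and 0.0196% to 0.0448%, and those of the 20 genes 8.38% to 9.34% and 8.13% to 8.98%. The part of these shares in the results was not tested. On the first principal component of the group-centred data, 10.1% of the variance, WT DCS 2 and WT vehicle 2 stood apart at -27.6 and -29.4, and the other 21 libraries lay between -14.3 and 12.4. On the second component, 8.27%, libraries numbered 1 to 3 lay between -4.03 and 18.2. Those numbered 4 to 6 lay between -28.3, in HT DCS 5, and 4.43.

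Of 17256 genes tested, 1380 passed an adjusted p of 0.05 between the number sets (limma with the 4 groups as covariate, Benjamini-Hochberg), which is 8% of the genes. In numbers 1 to 3, 766 genes were higher (4.44%) and 614 were lower (3.56%). An unadjusted p under 0.05 was reached by 3881 genes, where 863 would be reached on average with no difference. The differences were small. The median size among the called genes was 0.14 on the log2 scale, 1130 of them differed by less than 0.25 and 63 by 0.5 or more. The median over all tested genes was 0.0003, and 50.1% of them were above 0. The number set took 8.10% of the sum of squares within groups, where 1 of 19 degrees of freedom takes 5.26% on average. The 4 groups took 12.6% of the total, where their 3 of 22 degrees of freedom take 13.6% on average. The 4 contrasts of genotype or treatment (limma) called 0 genes, both with the number set in the fit and without it, and 556 to 1414 genes had an unadjusted p under 0.05 with it, against 497 to 1302 without it. Leaving out WT DCS 2 and WT vehicle 2 together left 822 genes called, 796 of them among the 1380, and leaving out HT DCS 5 and 6 left 1025. When the libraries of each number were averaged to 1 value after the group means were removed, so that 3 numbers stood against 3, no gene was called and 2667 had an unadjusted p under 0.05.

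**Figure D1:**
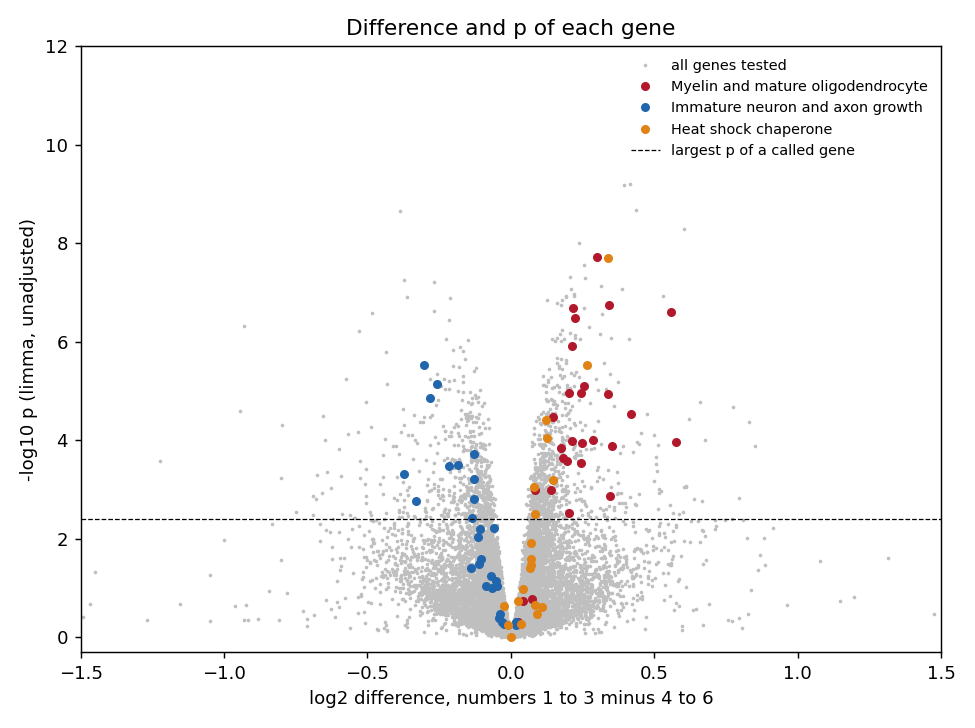
Each point is a gene, with the log2 difference (numbers 1 to 3 minus 4 to 6) on the x axis and -log10 of the unadjusted limma p on the y axis. All 28 myelin genes lie to the right of 0 and 25 of them above the dashed line (the largest p of a called gene), 26 of 28 genes of immature neurons lie to the left of 0, and 12 genes outside the plotted range of 1.5 either side of 0 are not drawn.

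A set of 15 genes (0.0869% of those tested) had all 12 libraries numbered 1 to 3 above all 11 numbered 4 to 6, and 4 genes (0.0232%) had them all below. The histone gene Hist1h2bc (chromosome 13, 23684199 to 23692908, plus strand, GRCm38), which encodes a core histone of the H2B type, had the smallest p of all. Its lowest, median and highest normalised read counts were 743, 841 and 903 in numbers 1 to 3, against 546, 626 and 711 in numbers 4 to 6. The sets did not overlap. The difference was 0.41 ± 0.04 on the log2 scale (SE, 12 and 11 libraries), with an adjusted p of 5.77e-06.

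Cmtm5 (chromosome 14, 54936261 to 54939274, plus strand), a membrane protein gene enriched in oligodendrocytes, had 999, 1163 and 1255 normalised read counts (lowest, median, highest) in numbers 1 to 3, against 759, 886 and 981 in numbers 4 to 6. Again no library of one set reached into the other, and the log2 difference was 0.39 ± 0.04 (SE; adjusted p = 5.77e-06). Efhd1, a calcium-binding protein of mitochondria, had 503, 554 and 589 in numbers 1 to 3, against 333, 405 and 492 in numbers 4 to 6. Its sets did not overlap either, at a log2 difference of 0.44 ± 0.05 (SE; adjusted p = 9.75e-06). Hist1h1c, a linker histone, had the largest log2 difference of the 12 named genes that were higher, 0.60 ± 0.07 (SE; adjusted p = 1.77e-05), with 374, 410 and 574 in numbers 1 to 3, against 220, 282 and 349 in numbers 4 to 6.

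The 8 others named on the higher side were Car2, Fa2h, Cryab, S100b, Pacsin2, Stac2, Tmem88b and Padi2, with log2 differences of 0.21 to 0.39. Several belong to oligodendrocytes. Car2 is the carbonic anhydrase found in these cells, Fa2h hydroxylates the fatty acids of myelin galactolipids, Cryab is a small heat shock protein abundant in mature oligodendrocytes, and Padi2 converts arginines of myelin basic protein to citrulline. S100b encodes a calcium-binding protein of astrocytes and of some oligodendrocytes. It had 3919, 4118 and 4436 normalised read counts in numbers 1 to 3, against 2806, 3599 and 3762 in numbers 4 to 6, without overlap. Pacsin2, which bends membranes in endocytosis, had 1986, 2113 and 2304 in numbers 1 to 3, against 1668, 1842 and 1958 in numbers 4 to 6, again without overlap. The other 6 overlapped between the sets in at least 1 library but in none of the 4 groups taken singly.

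On the lower side Deaf1 (chromosome 7, 141297180 to 141327690, minus strand), a DNA-binding transcription factor, had the smallest p. It had 2682, 2925 and 3383 normalised read counts in numbers 1 to 3, against 3396, 3855 and 4644 in numbers 4 to 6. No library of the first set reached the lowest of the second, and the log2 difference was -0.39 ± 0.04 (SE; adjusted p = 9.75e-06). Rbm3 (chromosome X, 8138975 to 8145880, minus strand), an RNA-binding protein induced by mild cold, had 3382, 3850 and 4822 in numbers 1 to 3, against 4691, 5267 and 5584 in numbers 4 to 6. Here the top of the first set passed the bottom of the second, while the groups taken singly did not overlap (-0.37 ± 0.05, SE; adjusted p = 7.88e-05). Sult1a1, a sulfotransferase of phenols, had 189, 230 and 246 in numbers 1 to 3, against 251, 309 and 393 in numbers 4 to 6. It fell without overlap, by 0.49 on the log2 scale (SE 0.07, adjusted p = 0.000135). Pla2g3, a secreted phospholipase, had the largest log2 difference of the 12 named genes that were lower, -0.53 ± 0.08 (SE; adjusted p = 0.000266), with 91.3, 121 and 140 in numbers 1 to 3 and 125, 174 and 228 in numbers 4 to 6.

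The 8 others named on the lower side were Zfp46, Eml2, Cemip, Tmem145, Npnt, Dpysl4, Ccs and Pkia, with log2 differences of -0.27 to -0.15. Eml2 binds microtubules, Cemip takes part in the breakdown of hyaluronan, Npnt is a protein of the extracellular matrix, Ccs delivers copper to superoxide dismutase and Pkia inhibits protein kinase A. Zfp46 had 2151, 2484 and 2796 normalised read counts in numbers 1 to 3, against 2755, 2961 and 3408 in numbers 4 to 6. Dpysl4 belongs to the same collapsin response mediator family as Dpysl3 and Dpysl5 below. It had 4003, 4118 and 4400 in numbers 1 to 3, against 4287, 4617 and 4843 in numbers 4 to 6. Both overlapped between the sets. Deaf1 and Sult1a1 were 2 of the 4 genes with all 12 libraries below all 11.

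**Figure D2:**
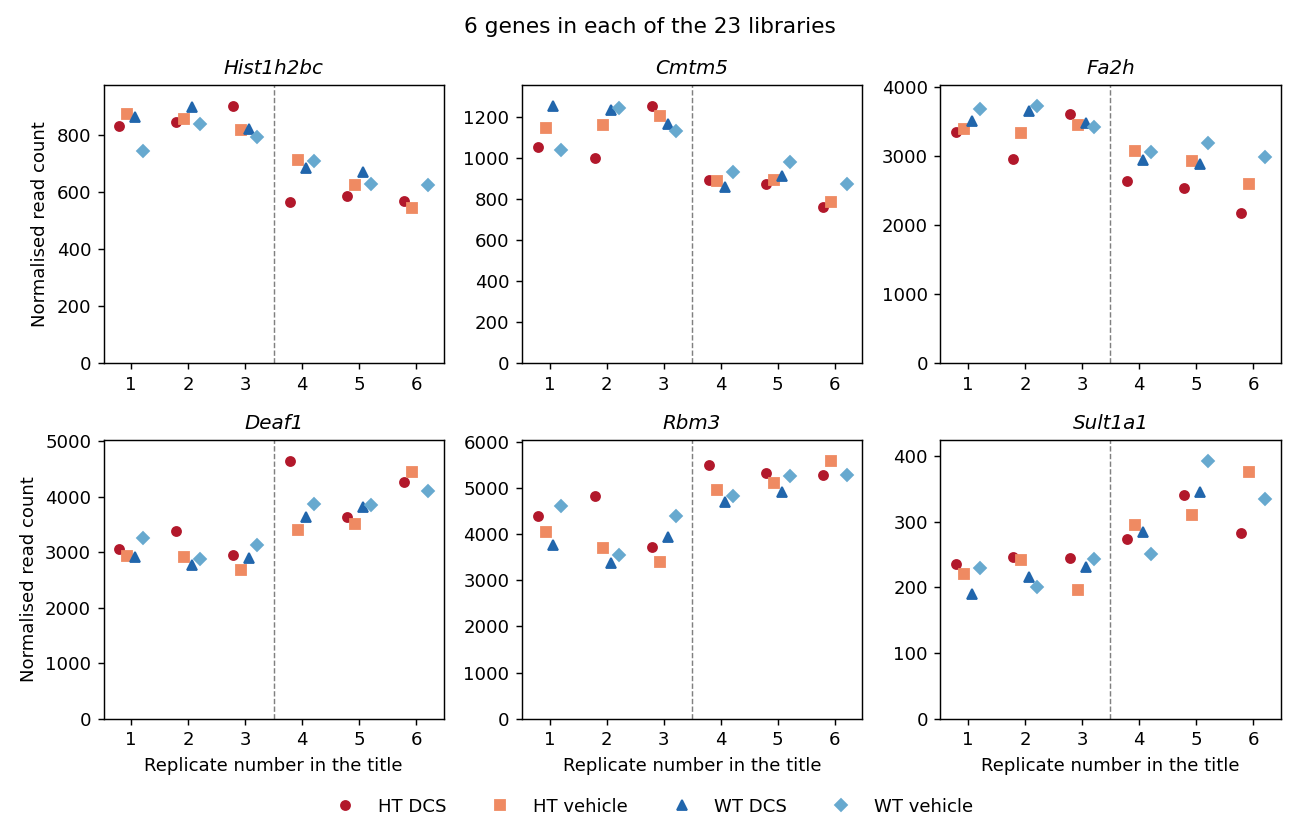
Normalised read counts (y axis, from 0) of 6 genes in each of the 23 libraries, by the replicate number in the title (x axis) and by group (colour and symbol); the dashed line parts the 2 number sets. In Hist1h2bc every library left of the line is at 743 or more and every library right of it at 711 or less, and in Deaf1 the order is the reverse.

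Most called genes had 1 direction in the 4 groups. The fit that called them pools the difference over these groups. A shared sign is thus favoured by the call itself and is no separate evidence. Of the 766 genes called higher, 724 had the same sign in each group, as had 575 of the 614 called lower; over all tested genes 4657 had 1 sign in all 4 groups. Without overlap inside each group, numbers 1 to 3 were higher in 73 genes (0.423% of those tested) and lower in 33 (0.191%). The difference between the number sets was compared between genotypes and between treatments in 1 fit. For genotype no gene passed (0% of 17256), 723 had an unadjusted p under 0.05 and the smallest adjusted p was 0.90. For treatment no gene passed either (0%), 1441 had an unadjusted p under 0.05 and the smallest adjusted p was 0.14, in Mt2, a metal-binding metallothionein. Among the 1380 called genes the smallest adjusted p of either interaction was 0.28. A p that misses the threshold does not show that the groups differed alike. Without HT DCS replicate 5 the treatment interaction called Mt2, without HT vehicle replicate 5 it called Nrp1 and Igsf9b, and without WT DCS replicate 5 it called Gm9797.

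**Figure D3:**
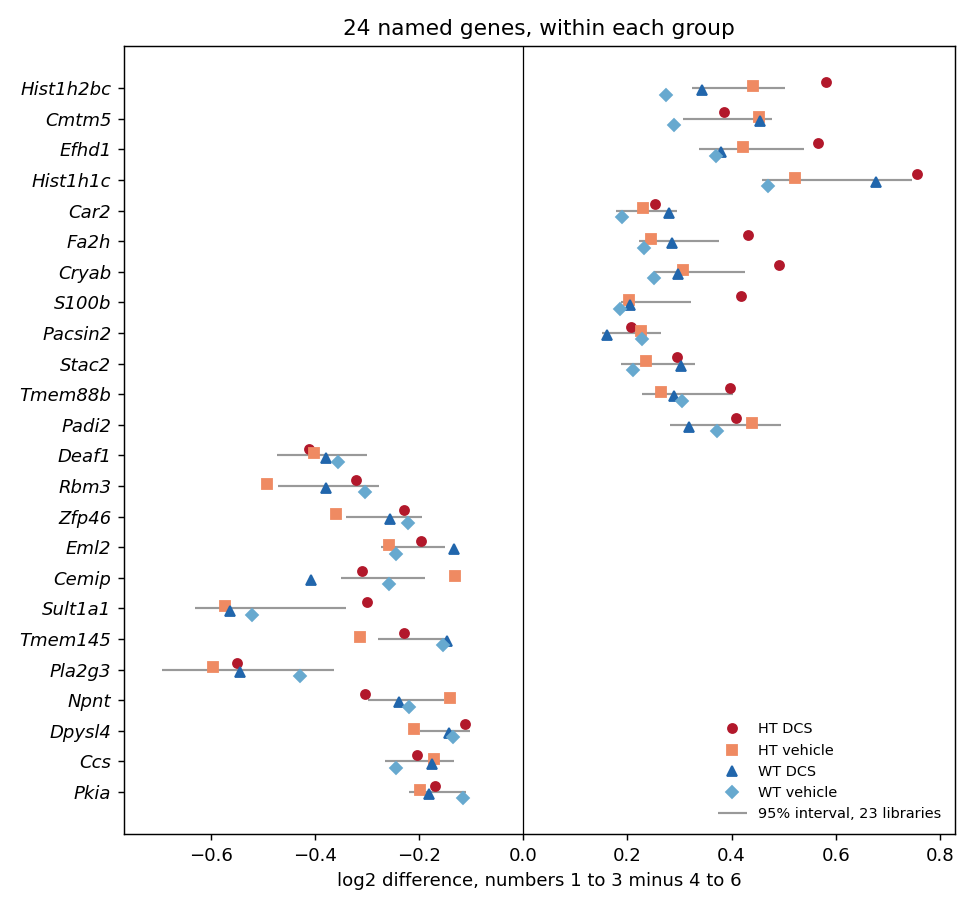
For the 12 named genes of each direction (y axis), the log2 difference between numbers 1 to 3 and 4 to 6 (x axis) within each of the 4 groups (symbols) and the 95% interval over all 23 libraries (line). These genes were picked from called genes with 1 sign in all 4 groups. By this rule, all 48 symbols of the upper genes lie right of 0 and all 48 of the lower genes lie left of it.

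Most myelin genes were higher in numbers 1 to 3. Of 28 genes of myelin and mature oligodendrocytes, all measured, 25 were called higher and 0 lower, against 4.44% and 3.56% of all tested genes. The median log2 difference of the list was 0.22, against 0.0003 over all genes. Per library, the mean of the list on the log2 scale ran from 11.57 to 11.87 with a median of 11.76 in numbers 1 to 3, and from 11.10 to 11.71 with a median of 11.53 in numbers 4 to 6. Inside each of the 4 groups every library of the first set was above every library of the second. The difference of the list mean was 0.39 in HT DCS, 0.22 in HT vehicle, 0.23 in WT DCS and 0.13 in WT vehicle. The count was 22 without HT DCS 5 and 6 and 24 without WT DCS 2 and WT vehicle 2.

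Among the enzymes that make myelin lipids, Fa2h had 2962, 3470 and 3733 normalised read counts in numbers 1 to 3, against 2184, 2936 and 3184 in numbers 4 to 6. Its log2 difference was 0.30 ± 0.04 (SE; adjusted p = 4.23e-05). Ugt8a, which makes galactosylceramide, had 7095, 7874 and 8499 in numbers 1 to 3, against 5931, 6904 and 7529 in numbers 4 to 6. The sets overlapped in both enzymes, and the groups taken singly did not (Ugt8a, log2 difference 0.22 ± 0.03, SE; adjusted p = 0.00012). Among the structural proteins, Mbp, myelin basic protein, had 204836, 234679 and 246782 in numbers 1 to 3, against 155531, 210853 and 235810 in numbers 4 to 6, a log2 difference of 0.17 ± 0.04 (SE; adjusted p = 0.0067). Cnp (0.15), Mag (0.14), Mog (0.20), Mobp (0.25), Mal (0.35), Cldn11 (0.18), which forms the tight junctions of myelin, and Opalin (0.29) were called higher as well.

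Trf, the iron carrier transferrin, which oligodendrocytes make in the brain, had 6710, 8645 and 10619 normalised read counts in numbers 1 to 3, against 4177, 6167 and 7443 in numbers 4 to 6. The log2 difference was 0.56 ± 0.07 (SE; adjusted p = 0.00013), and Klk6, a protease of mature oligodendrocytes, at 0.58 was the only member with a larger one. Ermn, a cytoskeletal protein of myelinating cells, had 1715, 2146 and 2393 in numbers 1 to 3, against 1332, 1770 and 1923 in numbers 4 to 6 (0.34 ± 0.05, SE; adjusted p = 0.00011). Both overlapped between the sets and in no single group. The gap junction gene Gjb1 (0.34), the hyaluronan link protein gene of nodes Hapln2 (0.42) and the aspartoacylase gene Aspa (0.24) were called. The 3 members not called were Myrf, the transcription factor that switches on myelin genes, at 0.02, Tspan2 at 0.04 and Tmem125 at 0.07.

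To show the DNA next to the starts of genes that were higher together, the 250 bases before the start were read from RefSeq promoters (GRCm38.p6), which held 21 of the 28 myelin genes. The strings CTGGCAC and CTGGTAC, forms of a site described for the myelin activator Myrf, were looked for on both strands, and capitals mark them below. At least 1 of them stood before 4 of the 21 genes (19.05%: Cnp, Hapln2, Mag and Mog), against 6.79% of 27025 genes with promoters. A gene with more than 1 promoter was counted when any of them held the string. The Mag window is chr7:30914864-30915113 on the minus strand, the Cnp window chr11:100574689-100574938 on the plus strand and the Hapln2 window chr3:88027512-88027761 on the minus strand, where the string reads on the opposite strand.
Mag: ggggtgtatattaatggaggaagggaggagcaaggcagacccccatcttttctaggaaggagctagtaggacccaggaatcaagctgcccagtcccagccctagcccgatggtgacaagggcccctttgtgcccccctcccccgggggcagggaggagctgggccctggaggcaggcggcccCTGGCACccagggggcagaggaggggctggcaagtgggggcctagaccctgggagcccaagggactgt
Cnp: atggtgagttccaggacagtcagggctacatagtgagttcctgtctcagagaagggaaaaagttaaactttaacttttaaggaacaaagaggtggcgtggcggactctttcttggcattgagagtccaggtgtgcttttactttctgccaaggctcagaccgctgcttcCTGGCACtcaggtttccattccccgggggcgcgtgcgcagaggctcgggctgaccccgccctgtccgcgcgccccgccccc
Hapln2: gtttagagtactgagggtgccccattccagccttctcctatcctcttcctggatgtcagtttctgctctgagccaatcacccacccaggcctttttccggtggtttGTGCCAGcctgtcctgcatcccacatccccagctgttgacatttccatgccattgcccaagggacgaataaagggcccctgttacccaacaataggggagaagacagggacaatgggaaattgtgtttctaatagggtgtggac
The first match began 68 bases before the start in Mag, 81 in Cnp and 144 in Hapln2. A match of letters is a description and no evidence that a factor binds. Among the other strings looked for, AACAAT stood before 19.05% of the myelin genes and 10.9% of all, ACAAAG before 38.1% of the myelin genes and 18.6% of all, and CCCTCCC before 38.1% of the myelin genes and 21.5% of all. The last of these was more frequent in the other lists searched, at 55.6% of the clock genes, 56.2% of the heat shock genes and 55% of the immature neuron genes. CACGTG stood before 9.52% of the myelin genes and 6.86% of all, and TTCNNGAA before 0 of the 21 myelin genes and 8.12% of all. TTATGTAA and GAATATTC stood before none of the 21.

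No gene listed for earlier stages of the same lineage was called higher. Of 22 genes of oligodendrocyte precursors and newly formed oligodendrocytes, 0 were called higher and 2 lower, 5 lay above 0 and 17 below, and the median log2 difference was -0.04. Over all tested genes 4.44% were called higher and 3.56% lower. In HT vehicle alone the list median was 0.0405, on the other side of 0. Tcf7l2, a transcription factor of newly formed oligodendrocytes and also of the thalamus, had 1165, 1312 and 1450 normalised read counts in numbers 1 to 3, against 1346, 1491 and 1627 in numbers 4 to 6. The sets overlapped, no single group did, and the log2 difference was -0.20 ± 0.03 (SE; adjusted p = 0.00075). Sirt2, a deacetylase of the lineage, differed by -0.09 (adjusted p = 0.027). The precursor genes Pdgfra (-0.06), the receptor through which these cells are kept dividing, and Cspg4 (-0.05) were not called, nor were Olig1 (0.04) and Olig2 (-0.04), which specify the lineage. The call count was 1 without HT DCS 4, WT vehicle 2 or WT vehicle 5, and 1 without WT DCS 2 and WT vehicle 2 together.

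**Figure D4:**
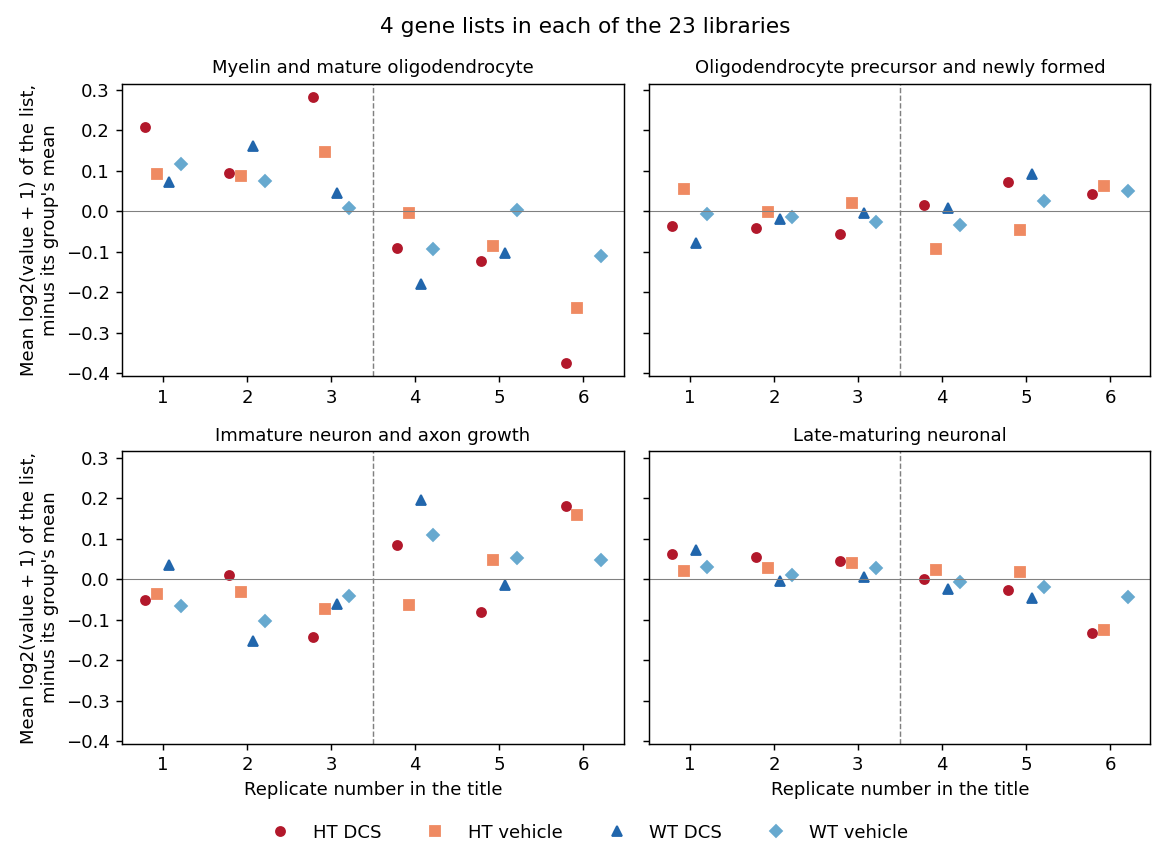
Mean log2(value + 1) of 4 gene lists in each library, minus the mean of the library's group (y axis), by replicate number (x axis) and group (colour and symbol); the dashed line parts the 2 number sets. Myelin genes lie higher left of the line and genes of immature neurons mostly lower, with number 6 lowest for myelin in HT DCS and HT vehicle.

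Many genes of immature neurons were lower in numbers 1 to 3. Of 28 genes of immature neurons and axon growth, 11 were called lower and 0 higher, against 3.56% and 4.44% of all genes, with a median log2 difference of -0.11. Dcx, doublecortin, a microtubule protein of migrating neurons, had 2517, 2843 and 3226 normalised read counts in numbers 1 to 3, against 3098, 3359 and 4275 in numbers 4 to 6. The sets overlapped, 3 of the 4 groups did not, and the log2 difference was -0.26 ± 0.05 (SE; adjusted p = 0.0012). Dpysl3, which acts in growth cones, had 3617, 4055 and 4442 in numbers 1 to 3, against 4232, 4746 and 6075 in numbers 4 to 6 (-0.30 ± 0.05, SE; adjusted p = 0.00075). Its relative Dpysl5 had 3212, 3645 and 4071 in numbers 1 to 3, against 3769, 4351 and 5462 in numbers 4 to 6 (-0.28 ± 0.05, SE; adjusted p = 0.0018). Stmn2, which loosens microtubules in growing axons, differed by -0.13 (adjusted p = 0.0081).

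The other 7 called members included Draxin (-0.37) and Islr2 (-0.13), which take part in axon guidance and growth. Sox11 (-0.21) and Sox4 (-0.14), transcription factors of young neurons, Igfbpl1 (-0.33), Marcksl1 (-0.19) and Crmp1 (-0.13) were the rest. Gap43, the growth cone protein, at -0.11 and Tubb3, the neuronal tubulin, at -0.05 were not called. The list mean differed by -0.12 in HT DCS, -0.10 in HT vehicle, -0.15 in WT DCS and -0.14 in WT vehicle. The sets overlapped in 3 of these groups. The count of called members was 10 without HT DCS 5 and 6 and 7 without WT DCS 2 and WT vehicle 2. Of 28 genes of dividing cells, 0 were called in either direction (limma), with 2 higher and 0 lower at an unadjusted p under 0.05. Over all tested genes 3881 of 17256 reached that p in either direction. Mki67, a protein of cycling cells, had 94.6, 149 and 206 normalised read counts in numbers 1 to 3, against 110, 142 and 250 in numbers 4 to 6, and the sets overlapped throughout (log2 difference 0.02 ± 0.12, SE; adjusted p = 0.94).

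Among neuronal genes that come on late, most calls were in the other direction. Of 28 such genes, 9 were called higher and 1 lower, against 4.44% and 3.56% of all tested genes, with a median log2 difference of 0.08. Hcn2, a channel that opens on hyperpolarisation, had 4751, 4985 and 5310 normalised read counts in numbers 1 to 3, against 3828, 4398 and 4817 in numbers 4 to 6. The sets overlapped, no single group did, and the log2 difference was 0.18 ± 0.03 (SE; adjusted p = 0.0003). Cck, the neuropeptide cholecystokinin, had 4491, 4658 and 5127 in numbers 1 to 3, against 3841, 4268 and 4468 in numbers 4 to 6, and no library crossed over (0.17 ± 0.03, SE; adjusted p = 0.0003). Kcnc1, a potassium channel of fast-spiking neurons, had 9105, 9844 and 10356 in numbers 1 to 3, against 7249, 8802 and 9507 in numbers 4 to 6 (0.19 ± 0.03, SE; adjusted p = 0.00062).

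Scn4b (0.20), a sodium channel subunit, Gabrd (0.14), a GABA receptor subunit outside synapses, Snap25 (0.11), a protein of vesicle release, and Pvalb (0.12), the calcium buffer of fast-spiking interneurons, were among the others called higher. Icam5, a dendritic adhesion protein, was the 1 member called lower, at -0.07. Members not called included Slc12a5, the chloride exporter of mature neurons, at 0.03, Camk2a at 0.05 and the neurofilament gene Nefh at 0.08. The mean of the list in HT vehicle replicate 6 was 12.55, the lowest of its group. The count of genes called higher was 6 without HT DCS 5 and 6, 6 without HT DCS 3 and 8 without WT DCS 2 and WT vehicle 2. Of 22 tested genes of an embryonic and neonatal growth programme, 1 was called higher (4.55%) and 2 lower (9.09%). In that list 9 genes lay above 0 and 13 below, with a median log2 difference of -0.02. Leaving out each library gave 0 to 1 higher and 1 to 3 lower.

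Of the 7 NMDA receptor subunit genes, which include the mutated gene of the study, 3 were called lower and 0 higher, against 3.56% and 4.44% of all tested genes. The count was 2 without WT DCS 2 and WT vehicle 2 together, and 2 without HT DCS 3, HT DCS 4, HT DCS 6, WT DCS 4 or WT vehicle 2 alone. The log2 differences of the 7 ran from -0.13 to 0.14, with 4 below 0 and 3 above. At an unadjusted p under 0.05 (limma) 3 were lower and 1 higher, against 3881 of all 17256 genes in either direction. Grin2c and Grin3b lay above 0 and were not called. Grin2b had 15207, 18842 and 20202 normalised read counts in numbers 1 to 3, against 14618, 19371 and 21725 in numbers 4 to 6. The sets overlapped over nearly their whole range (log2 difference -0.06 ± 0.06, SE; adjusted p = 0.66). Grin2d, a subunit of early development and of interneurons, had 1241, 1322 and 1439 in numbers 1 to 3, against 1342, 1455 and 1572 in numbers 4 to 6 (-0.13 ± 0.03, SE; adjusted p = 0.0058). Grin3a, a subunit most abundant in young brain, differed by -0.12 (adjusted p = 0.028) and Grin1, the subunit that every NMDA receptor holds, by -0.08 (adjusted p = 0.011). Grin2a, which replaces part of the GluN2B after birth, had 5152, 5838 and 6162 in numbers 1 to 3, against 4614, 5771 and 6448 in numbers 4 to 6, with overlap throughout (0.01 ± 0.04, SE; adjusted p = 0.92).

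Clustered histone genes, a family singled out after its values were seen, followed Hist1h2bc and Hist1h1c. Of 16 tested, 7 were called higher and 0 lower, against 4.44% and 3.56% of all tested genes, 15 lay above 0 and the median log2 difference was 0.37. Hist1h2be had 53.3, 86.8 and 102 normalised read counts in numbers 1 to 3, against 33, 55.2 and 70.6 in numbers 4 to 6 (0.66 ± 0.13, SE; adjusted p = 0.002). Hist2h3c2 (0.68), Hist1h3d (0.64) and Hist1h1e (0.62) were called with similar log2 differences. Most histone mRNAs of this kind end in a stem-loop in place of a poly(A) tail, the kit named in the labels is one for mRNA, and the members are close copies of each other, so reads may have been shared between them. No gene of dividing cells, as given above, was called.

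Of 20 chaperone genes of the heat shock response, 7 were called higher and 0 lower, against 4.44% and 3.56% of all tested genes, with a median log2 difference of 0.08. Hsph1, a chaperone that works with Hsp70, had 6395, 7044 and 8133 normalised read counts in numbers 1 to 3, against 5182, 6039 and 6741 in numbers 4 to 6. The sets overlapped (0.26 ± 0.04, SE; adjusted p = 0.00075). Cryab, named above and also abundant in oligodendrocytes, had 1603, 1995 and 2152 in numbers 1 to 3, against 1189, 1635 and 1707 in numbers 4 to 6. The cochaperone genes Stip1 (0.12), Fkbp4 (0.08), Chordc1 (0.15) and Ahsa1 (0.08) and the Hsp110 family gene Hspa4l (0.13) were also called. Hspa1a (0.08) and Hspa1b (0.09), the inducible Hsp70 genes, and Dnajb1 (0.07) were not. Without HT DCS 5 and 6, and likewise without WT DCS 2 and WT vehicle 2, 5 were called higher. Among 24 genes of the unfolded protein and integrated stress response, Hsp90b1 (0.12), Atf4 (0.12) and Canx (0.08) were called higher and 0 lower.

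Among genes of the circadian clock, Nr1d1, Dbp, Ciart and Bhlhe41 were called higher. They were 4 of 21, with 0 called lower, against 4.44% and 3.56% of all tested genes, with a median log2 difference of 0.04. Nr1d1, a repressor that the clock drives, had 2951, 3117 and 3564 normalised read counts in numbers 1 to 3, against 2363, 2673 and 2947 in numbers 4 to 6, without overlap (0.22 ± 0.03, SE; adjusted p = 0.0003). Dbp (0.20 ± 0.05, SE; adjusted p = 0.0093), Ciart (0.26 ± 0.08, SE; adjusted p = 0.034) and Bhlhe41 (0.15 ± 0.04, SE; adjusted p = 0.037) overlapped between the sets. Ciart, a repressor of clock transcription, differed by 0.66 in HT DCS, -0.09 in HT vehicle, 0.40 in WT DCS and 0.11 in WT vehicle. The activators Arntl (-0.02), Clock (-0.04) and Npas2 (0.02) were not called, nor were Per1 (-0.02), Per2 (0.01), Per3 (-0.06), Cry1 (-0.05) and Cry2 (-0.06), repressors that the clock drives. Nr1d2 (0.06), Tef (-0.003), Hlf (0.04) and Usp2 (0.10), also clock outputs, were not called either. The count was 2 without HT DCS 3, HT DCS 5, HT DCS 6, WT DCS 4 or WT vehicle 4, with 1 called lower without WT DCS 4, and 2 without HT DCS 5 and 6 together. The labels give a 12 h light and dark cycle and no hour of dissection.

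The string CACGTG is the E-box through which the clock activator acts. It stood in the 250 bases before 5 of the 18 clock genes in the promoter table (27.8%), against 6.86% of all genes there. Among the 4 called genes Ciart and Bhlhe41 held it. Ciart, at chr3:95882229-95882478 on the minus strand, held 3 copies, in capitals below, the first of them 116 bases before the start.
Ciart: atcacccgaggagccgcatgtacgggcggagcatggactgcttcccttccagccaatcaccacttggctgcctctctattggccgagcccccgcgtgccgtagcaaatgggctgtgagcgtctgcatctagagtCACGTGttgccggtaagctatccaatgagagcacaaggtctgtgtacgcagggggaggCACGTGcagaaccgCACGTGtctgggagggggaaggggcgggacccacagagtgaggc
The string TTATGTAA, a site of Dbp and its relatives, stood before 1 of the 18 (5.56%), against 0.977% of all, and before none of the 4 called genes. TTCNNGAA, a core of the heat shock site, stood before 3 of 16 chaperone genes in the table (18.8%: Hspd1, Hspe1 and Hsph1), against 8.12% of all. Of the 6 called chaperone genes there, Hsph1 alone held it. The palindrome GAATATTC stood before 0 of the 16 and 0.363% of all.

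Of 23 genes that glucocorticoids induce, 3 were called lower and 0 higher, against 3.56% and 4.44% of all tested genes. The median log2 difference of the list was -0.02. Fkbp5, a cochaperone of the glucocorticoid receptor, had 846, 931 and 981 normalised read counts in numbers 1 to 3, against 914, 1054 and 1149 in numbers 4 to 6 (-0.15 ± 0.03, SE; adjusted p = 0.0071). Sult1a1 and Pla2g3, described above, were the other called members, while Sgk1 (-0.06) and Mt1 (-0.08) were not called. Of 38 genes that neuronal activity switches on early, 2 were called higher and 0 lower (1 higher without WT DCS 2 and WT vehicle 2). They were Ier5 (0.21 ± 0.04, SE; adjusted p = 0.0039) and Pcsk1 (0.11 ± 0.03, SE; adjusted p = 0.021). Fos, the best known of them, had 535, 1456 and 1897 in numbers 1 to 3, against 390, 1060 and 1975 in numbers 4 to 6, and its libraries overlapped across the whole range (0.35 ± 0.28, SE; adjusted p = 0.51).

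Blood genes differed with a wide spread. Of 10 tested, 5 were called higher and 1 lower, against 4.44% and 3.56% of all tested genes, with a median log2 difference of 0.40. Hba-a2, an alpha globin gene, had 3235, 3832 and 5754 normalised read counts in numbers 1 to 3, against 1715, 2905 and 4140 in numbers 4 to 6. The sets overlapped (0.52 ± 0.13, SE; adjusted p = 0.022). Hbb-bt had 684, 892 and 1545 in numbers 1 to 3, against 322, 611 and 882 in numbers 4 to 6 (0.60 ± 0.15, SE; adjusted p = 0.021). The globin genes Hbb-bs (0.51) and Hba-a1 (0.44) were called too, and the alpha and beta copies share most of their sequence, so their reads may be split between them. The summed blood value ran from 25663 to 37750 in numbers 1 to 3 and from 21524 to 29636 in numbers 4 to 6. Of the defining markers, Alas2 (0.36) was not called, and Hemgn did not pass the filter on low values. The count of higher genes was 3 without WT DCS replicate 5 and 3 without WT DCS 2 and WT vehicle 2. The part of blood in other results was not tested.

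The counts of called vessel and immune genes moved when libraries were left out. Among 16 genes of pericytes and vascular muscle, 3 were called higher (18.8%) and 0 lower, against 4.44% and 3.56% of all tested genes. The count was 1 without WT DCS 2 and WT vehicle 2 and 1 to 4 when each library was left out. Rgs5, a pericyte gene, had 2580, 3154 and 3564 normalised read counts in numbers 1 to 3, against 2228, 2596 and 3441 in numbers 4 to 6 (0.23 ± 0.05, SE; adjusted p = 0.0084). The others were Kcnj8 (0.24) and Tagln (0.25). Of 22 endothelial genes, Itm2a (0.14) and Pltp (0.10) were called higher and 0 lower, while Cldn5, the barrier claudin, was at -0.08. The endothelial count was 0 without WT DCS 2 and WT vehicle 2 and 1 to 3 when each library was left out. Microglia genes had a median log2 difference of 0.25 over 24 members, and 0 were called in either direction (limma). At an unadjusted p under 0.05, 10 were higher and 0 lower, against 3881 of 17256 tested genes in either direction. Cd53, a membrane protein of leukocytes, had 57.2, 81.9 and 111 in numbers 1 to 3, against 47.6, 65.9 and 86.5 in numbers 4 to 6, with overlap (0.33 ± 0.12, SE; adjusted p = 0.087). The microglia list mean differed by -0.06 in HT DCS, 0.39 in HT vehicle, 0.36 in WT DCS and 0.23 in WT vehicle. Without HT DCS 5 and 6, 5 of the 24 were called higher and the median was 0.35. Without WT DCS 2 and WT vehicle 2, 0 were called and the median was 0.15. Among 26 interferon and antigen presentation genes, Ifi27 (0.36 ± 0.07, SE; adjusted p = 0.0021) and B2m (0.19 ± 0.04, SE; adjusted p = 0.0037), the light chain of class I molecules, were called higher and 0 lower, and 4 were higher without HT DCS 5 and 6. Leaving out each library gave 2 to 4 higher. Choroid plexus genes gave 2 higher and 0 lower of 21 (F5 at 0.44 and Enpp2, also made by oligodendrocytes, at 0.18), with 2 to 4 higher when each library was left out. Meningeal genes gave 0 of 18 (limma), with 2 higher and 1 lower at an unadjusted p under 0.05, again against 3881 of 17256 tested genes.

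Astrocyte genes were split. Of 24, 5 were called higher and 2 lower, against 4.44% and 3.56% of all tested genes. Leaving out each library gave 4 to 7 higher and 1 to 2 lower. Besides S100b, the higher ones were the water channel gene Aqp4 (0.22), Gpr37l1 (0.16), Ntsr2 (0.15) and Acsbg1 (0.07). Agt, angiotensinogen, had 1541, 1734 and 1938 normalised read counts in numbers 1 to 3, against 1708, 2065 and 2477 in numbers 4 to 6 (-0.25 ± 0.05, SE; adjusted p = 0.0059), and Aldh1l1 (-0.09) was the other lower one. Gfap (-0.01) and Slc1a2 (-0.01), the main glutamate transporter, were not called.

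Markers of brain regions differed in how many were called, against 4.44% of all tested genes called higher and 3.56% called lower. Striatal genes gave 1 higher and 0 lower of 21 (Penk, 0.13), cortical layer genes 0 and 2 of 22 (Crym, -0.12, and Mef2c, -0.09), hippocampal genes 2 and 1 of 16 (12.5% and 6.25%), thalamic genes 2 and 1 of 15 (13.3% and 6.67%), hypothalamic genes 0 and 1 of 19, and olfactory bulb genes 1 and 0 of 19. Without WT DCS 2 and WT vehicle 2 the cortical and hippocampal lists had 0 called in either direction and the thalamic list 1 and 1. Without HT DCS 5 and 6 the cortical list gave 0 and 1, the hippocampal list 1 and 0, and the thalamic list 1 and 1. Of 24 cerebellar genes, 5 were called higher (20.8%) and 0 lower. Cbln3, made by cerebellar granule cells, had 5802, 6260 and 6782 normalised read counts in numbers 1 to 3, against 4442, 5646 and 6382 in numbers 4 to 6, and the sets overlapped (0.21 ± 0.04, SE; adjusted p = 0.0015). Gabra6, a granule cell GABA receptor subunit (0.13), Itpr1 (0.14) and Pvalb were among the others. The count was 1 without HT vehicle 3, 2 without HT DCS 1, HT DCS 3 or HT DCS 6, and 3 without HT DCS 5, WT DCS 1 or WT vehicle 6, and 2 were called lower without HT DCS 5. The cerebellar mean of HT DCS replicate 5 was 11.02, the lowest of its group. Without HT DCS 5 and 6 the count was 1 higher and 1 lower.

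The hindbrain and monoamine neuron list, which holds Hox genes of the caudal brainstem, had a median log2 difference of 0.15 over 19 tested genes with 0 called (limma). In it 6 genes were higher and 1 lower at an unadjusted p under 0.05, against 3881 of 17256 tested genes in either direction. The list mean differed by 0.97 in HT DCS, 0.33 in HT vehicle, -0.06 in WT DCS and -0.15 in WT vehicle, and its median was -0.002 without HT DCS 5 and 6. Hoxa5 had 10.7, 37.6 and 48.5 normalised read counts in numbers 1 to 3, against 0, 19.5 and 47.6 in numbers 4 to 6, with overlap (1.32 ± 0.54, SE; adjusted p = 0.15). Of 13 pituitary and pineal genes, 3 passed the filter on low values and none was called. The part of differences in dissected tissue in the results was not tested.

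**Figure D5:**
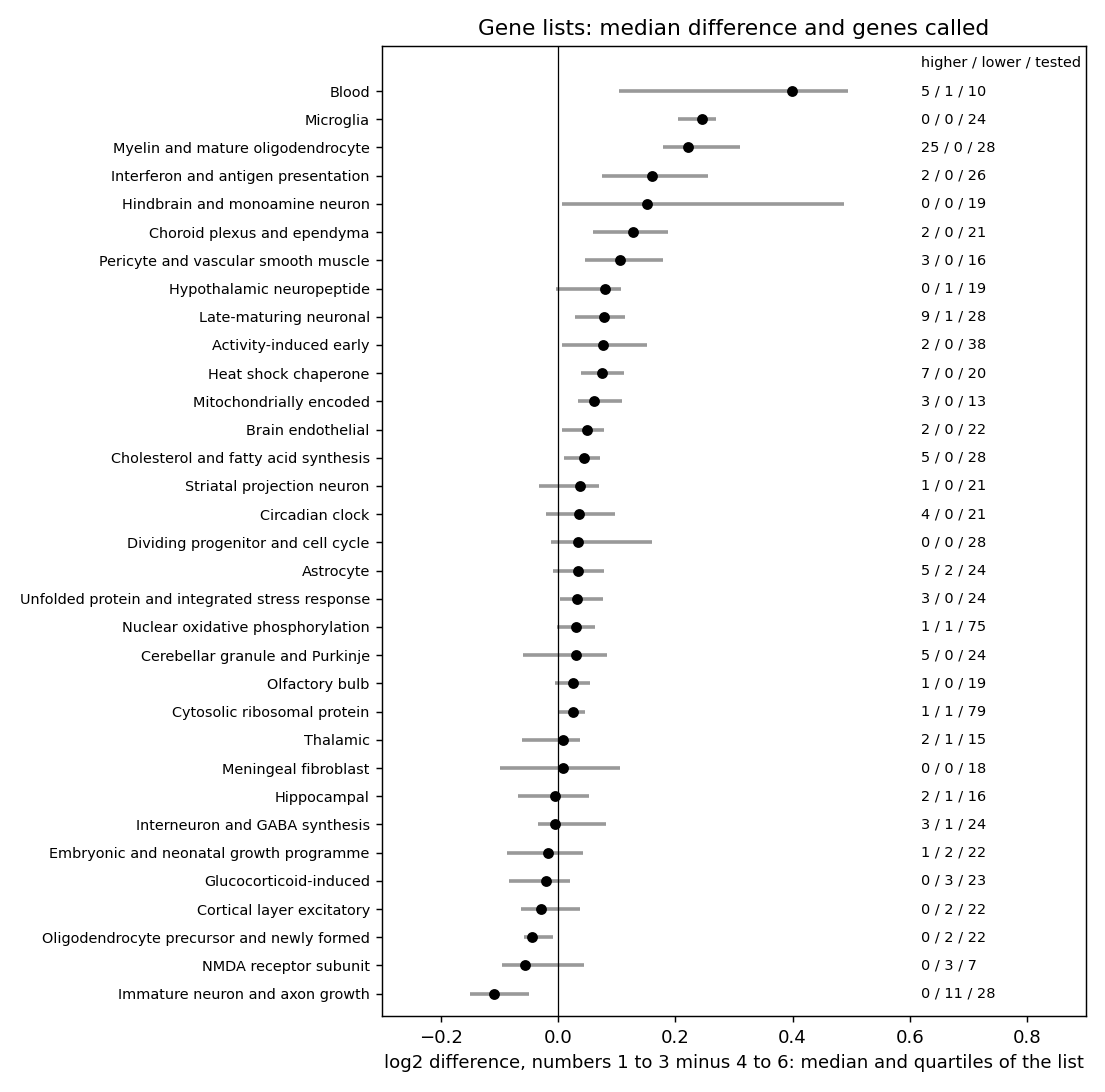
Median (point) and quartiles (line) of the log2 difference between numbers 1 to 3 and 4 to 6 (x axis) for the 33 gene lists with at least 5 tested genes (y axis), with the genes called higher, called lower and tested at the right. Myelin genes combine a high median (0.22) with 25 of 28 called, and immature neuron genes have the lowest median (-0.11).

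Among metabolic genes the share called differed between lists, against 4.44% higher and 3.56% lower over all tested genes. Of 79 ribosomal protein genes 1 was called higher (Rpl27a, 0.13) and 1 lower (Rpl5, -0.15), and of 75 nuclear genes of oxidative phosphorylation 1 was higher (Atp5k, 0.12) and 1 lower (Atp5a1, -0.06), with 5 higher without HT vehicle 6. Of 13 mitochondrially encoded genes 3 were higher (23.1%) and 0 lower. They were mt-Nd2 (0.15), mt-Nd4 (0.11) and mt-Cytb (0.11). The count was 1 without HT DCS 5 and 6, 2 without WT DCS 2 and WT vehicle 2, and 5 without HT vehicle 4. Among 28 genes of cholesterol and fatty acid synthesis, 5 were higher (17.9%) and 0 lower, and the count was 4 without HT DCS 5 and 6 and 4 to 7 when each library was left out. Scd2, the desaturase most abundant in brain, had 49816, 50736 and 52459 normalised read counts in numbers 1 to 3, against 43255, 47096 and 49606 in numbers 4 to 6, and no library crossed over (0.13 ± 0.02, SE; adjusted p = 0.0001). Msmo1 (0.20), an enzyme of sterol synthesis, Scd1 (0.14) and Insig1 (0.08) were among the others. The Y-linked genes Uty, Kdm5d, Ddx3y and Eif2s3y, a check of the male label, were present in all 23 libraries and differed by -0.10 to 0.07 with none called.

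Called genes were more abundant than most and differed in structure between the directions. The median of the mean normalised read count was 1644 for genes called higher and 1457 for genes called lower, against 573 over all tested genes. The median longest transcript was 3063 bases for genes called higher and 3972 for genes called lower, against 3247 over all tested genes. The median gene span was 19.1 kb for the higher and 35.3 kb for the lower genes, against 21.8 kb over all, and the median GC content of the transcripts was 51.6% for the higher and 49.3% for the lower genes, against 49.5% over all. The part of level, length and GC content in the calls was not tested.

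The level of the lists was also read by single number, as the mean over groups of each library's distance from its group. For myelin genes numbers 1, 2 and 3 stood at 0.12, 0.10 and 0.12 on the log2 scale, and numbers 4, 5 and 6 at -0.09, -0.08 and -0.24. For genes of immature neurons the values were -0.03, -0.07 and -0.08 for numbers 1, 2 and 3, and 0.08, 0.002 and 0.13 for numbers 4, 5 and 6. Heat shock genes stood at 0.03, 0.04 and 0.05 for numbers 1, 2 and 3, and at -0.04, -0.06 and -0.04 for numbers 4, 5 and 6. In each of these 3 lists the numbers of the first set stood on one side of 0 and those of the second on the other. The late-maturing neuronal, the blood and the cholesterol and fatty acid synthesis lists parted in the same way. Late-maturing genes stood at 0.05, 0.02 and 0.03 for numbers 1, 2 and 3, and at -0.002, -0.02 and -0.10 for numbers 4, 5 and 6. Some other lists with called members did not part in this way. Number 4 stood at 0.04 for mitochondrially encoded genes, beside 0.02 to 0.03 for numbers 1 to 3. Number 5 stood at 0.001 for clock genes, and for cerebellar genes number 3 stood at -0.01 and numbers 4 and 6 at 0.02.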

How the data were processed

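The labels' protocols name a stranded kit for mRNA, used for all 23 brain libraries. The table of 18848 genes that the authors deposited holds scaled read counts, a signal with decimals and no negative value. GRCm38, Salmon 1.1.0, DESeq2 1.26.0 and R 3.6.2 stand in the submitters' processing notes without role or order; annotation and filters were not given in the sources used here. After scaling, totals are alike and total RNA cannot be compared, and near-identical genes can exchange reads. Whole reads could not be recovered. The depth before scaling was estimated from the worth of 1 read, 25.6 M to 37.4 M per library, and no counting interval is given.

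Values were tested as log2(value + 1) with limma 3.58.1 in R 4.3.3, with 1 coefficient per group and 1 for the number set (numbers 1 to 3 minus 4 to 6), a mean trend and robust moderation. Tests were two-sided over 17256 genes whose mean reached 10, with Benjamini-Hochberg adjustment at 0.05 over all of them. The pseudocount understates the fold change of low genes. Interactions were fitted with 1 coefficient per group and number set.

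The number sets, the 36 gene lists and the tests were chosen with earlier results of these data known. Lists are given by counts and medians, with no test of their own. The named genes are, per direction, the 12 with the smallest p among called genes with 1 sign in all 4 groups, leaving out predicted models, up to 4 members of each list by p, the NMDA receptor subunits, Mki67, Mbp and Dcx. Other list members were named after their values were seen. Some genes that the rule names are left out here. Symbols were looked up by gene identifier (16 had none), coordinates from GENCODE on GRCm38, and promoters from RefSeq (GRCm38.p6).

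Alternatives were other pseudocounts and filters, 2 other scalings, no trend, array weights, no group covariate, the replicate number as a block, 1 mean per number, subsets of the groups, and leaving out libraries or numbers.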

Additional observations from a re-analysis of the deposited data

Results flagged for a closer look

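Of 48 sets of group and gene list checked for a library far from the others of its group, 6 held one, where chance gives about 1 in 20. Values are mean log2(value + 1) of the list in that library. In late-maturing neuronal genes HT vehicle 6 was lowest of 6 at 12.55, and the nearest other library stood at 12.69. In circadian clock genes WT vehicle 4 was lowest at 10.45, with the nearest at 10.54. In blood genes HT DCS 2 was highest at 10.56, with the nearest at 9.79, and WT vehicle 4 was lowest at 9.62, with the nearest at 9.87. In hindbrain and monoamine neuron genes WT vehicle 3 was lowest at 5.96, with the nearest at 6.34. In cerebellar genes HT DCS 5 was lowest at 11.02, with the nearest at 11.31. The blood median was 0.28 without HT DCS 2, against 0.40 with all libraries, and the cerebellar median was 0.01 without HT DCS 5, against 0.03.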

How the results depend on the processing

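The count of 1380 genes was 1381 and 1380 with pseudocounts of 0.5 and 5, 1333 with no filter, 1443 with a mean of at least 50, 1148 without trend and robust settings, 1383 and 1389 with quantile and median-ratio scaling, 1522 with array weights and 1412 without the group covariate. After group and set means were removed, same-numbered libraries correlated at -0.15 to 0.22, with 1 pair of 33 above 0.1, so the numbers were not taken to pair samples. With the replicate number as a block it was 1388 by the title and 1515 by the description, and the block changed no call of a named gene. No interaction was called under the block. With 1 mean per replicate number, 3 against 3, 0 genes were called, 0 higher and 0 lower, and the 24 named genes had an adjusted p of 0.31 (limma). They kept their direction, which averages of the same libraries could hardly change. Subsets have fewer libraries. In HT alone 127 genes were called (90 higher, 37 lower), in WT alone 152 (87 and 65), in DCS alone 271 (159 and 112) and in vehicle alone 153 (87 and 66). In single groups HT DCS gave 8 (8 and 0), HT vehicle 1 (0 and 1), WT DCS 3 (3 and 0) and WT vehicle 7 (3 and 4). Leaving out WT DCS 2 and WT vehicle 2, chosen after seeing the data, left 822 (482 higher, 340 lower), and leaving out HT DCS 5 and 6 left 1025. Leaving out each library in turn gave 975 (without HT DCS 3) to 1441 (without HT vehicle 4) genes, 557 to 813 higher and 418 to 645 lower. Leaving out each number in all groups gave 547 (without 3) to 1018 (without 4), 330 to 620 higher and 217 to 442 lower, with 672 without 2, 782 without 5 and 837 without 6. The difference between treatments gave 0 to 2 genes when each library was left out, and the difference between genotypes 0. The median of the precursor and newly formed oligodendrocyte list turned to 0.0405 in HT vehicle alone, and the cause was not tested. The depth of the libraries and the 11 to 12 per set limit the size of change that can be called.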

Other observations

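Some genes outside the named ones stood at different levels in single libraries. Gm5641, a predicted gene model, was listed at 0 in HT DCS 1 and 2, HT vehicle 1 and 3, WT DCS 2 and WT vehicle 2, and at 91 to 966 normalised read counts in every library numbered 4 to 6. In the other libraries numbered 1 to 3 it had 165 to 609. Its fitted difference of -5.01 (SE 1.49, adjusted p = 0.046) depends on the pseudocount and is no bound. Npcd had 18.0, 49.6 and 79.3 (lowest, median, highest) in numbers 1 to 3, against 30.6, 117 and 161 in numbers 4 to 6 (log2 difference -1.22 ± 0.28, SE; adjusted p = 0.0096).

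Ide, which encodes insulin-degrading enzyme and lies in a stretch that varies in copy number among C57BL/6J colonies, had 1886, 2817 and 3093 normalised read counts in numbers 1 to 3, against 1924, 3012 and 4275 in numbers 4 to 6. The sets overlapped (-0.25 ± 0.15, SE; adjusted p = 0.36). Its neighbours Fgfbp3 (-0.21) and Btaf1 (-0.04) were not called either. The share of tested genes called between the number sets was 5.33% on chromosome 18, the lowest, and 10.7% on chromosome X, the highest.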
